A study of Homo sapiens with 4 samples.

Results

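The genes that make cholesterol and sense its level were examined in TU-177 cells, an established human line of laryngeal squamous cell carcinoma (LSCC), after knockdown of SKA3. The set holds 28 genes of 28729 in the deposited table, chosen by name from the textbook pathway with earlier results of these data known. It takes in 20 enzymes from the first condensations of acetyl-CoA to the last reductions of the sterol ring, 6 genes of the sterol sensor, and a sterol carrier and a ubiquitin ligase that act on sterol transfer and uptake. All 28 genes were in the table and passed the filter for testing, a mean of at least 1 FPKM over the 4 libraries. Other enzymes of the route were not analysed here.

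SKA3 encodes a subunit of the complex that ties kinetochores to spindle microtubules. RNA was sequenced from 2 libraries of cells with the negative control (NC) and 2 libraries with SKA3 knockdown (SKA3-KD). Per the labels, both groups were TU-177 cells given a lentivirus, carrying a hairpin against SKA3 or a control hairpin, and then kept in puromycin, so viral infection and drug selection were common to both. The methods of the study describe siRNA, hairpin and Cas9-based routes to SKA3 loss and do not say which gave the sequenced cells. The labels describe selected cells and do not name a clone, and nothing states that the libraries of a group came from separate cultures. The p-values therefore measure the spread between these libraries, which may be technical.

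Cholesterol is built from acetyl-CoA. Condensing enzymes make a hydroxymethylglutaryl unit, which is reduced to mevalonate, phosphorylated, decarboxylated and joined into farnesyl diphosphate. A pair of farnesyl units forms squalene, which is oxidised and closed into lanosterol, and a final series of demethylations, isomerisations and reductions yields cholesterol. The genes of the route are under feedback from the product. When membrane sterol is low, SCAP carries the transcription factor SREBP-2 from the endoplasmic reticulum to the Golgi, where 2 proteases release its active part, and when sterol is high the INSIG proteins hold SCAP back. SREBP-2 acts at sterol regulatory elements in promoters, usually beside CCAAT boxes bound by NF-Y or GC boxes bound by Sp1. In epithelial tumours, as in other dividing cells, the route supplies membrane sterol and the isoprenoids that anchor small GTPases.

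SKA3 itself was measured at 9.40 and 9.64 FPKM in the NC libraries and at 3.77 and 4.12 FPKM in the SKA3-KD libraries. FPKM divides the fragments of a gene by a gene length and by the mapped fragments of the library. For 61.3% of the genes tested that length matched the merged exons of the gene in GENCODE and not 1 transcript. Comparisons of level between genes are therefore rough. The log2 fold change of SKA3 was -1.09 (SE 0.07, adjusted p = 0.00806, limma). Library sizes, read off the smallest steps between FPKM values, lay between 9015056 and 11966130 reads, and the 10 highest genes took 5.91% to 6.14% of the reads in each. Of 9 markers of squamous epithelium, 8 were in the table and 3 had a mean of at least 1 FPKM, SFN, KRT17 and DSC3. The defining basal keratins KRT5, KRT14 and KRT6A were at or near 0, with at most 0.103 FPKM in any library, and TP63 and CDH1 averaged 0.472 and 0.307 FPKM. The labelled squamous identity was therefore carried by few of its markers in these cells. The squamous markers summed to 192 and 207 FPKM in NC and to 165 and 187 FPKM in SKA3-KD. SFN, most of that sum, and DSC3 were not called (log2 fold changes -0.08 and -0.22, adjusted p = 0.537 and 0.410, limma). KRT17 fell from 45.6 and 49.1 FPKM to 29.4 and 35.7 FPKM (log2 fold change -0.53, adjusted p = 0.0396, limma). The 5 fibroblast markers in the table, 2 of them above a mean of 1 FPKM, summed to 12.5 and 13.3 against 5.67 and 5.43 FPKM. DCN, a fibroblast proteoglycan, made most of that difference, while the leukocyte and endothelial markers summed to at most 0.131 FPKM. Bulk RNA cannot tell fewer cells of a type from less RNA per cell, and the part of these marker differences in the sterol genes was not tested.

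Sterol pathway transcripts were mostly lower in SKA3-KD. Of the 28 genes, 8 fell and 1 rose at an adjusted p under 0.05 (limma on log2(FPKM + 1), Benjamini-Hochberg over the 12645 genes tested). The genes that fell were ACAT2, FDFT1, SQLE, MSMO1, DHCR7, INSIG1, INSIG2 and STARD4, and the gene that rose was PMVK. Over all genes tested, 6.11% were called lower and 6.16% were called higher at the same threshold. The fold change was negative for 23 and positive for 5 of the 28, beside 6125 and 6520 of the 12645 genes tested. Both SKA3-KD libraries lay below both NC libraries for 17 of the 28 and above them for 3, beside 29.2% and 32.3% of all genes tested. The median log2 fold change of the 28 was -0.20, beside 0.01 over all genes tested. Fitted with voom on the whole reads recovered from the FPKM values, 14 of the 28 were lower and 1 was higher, against 12.3% and 13.9% of all genes tested. No call survived when any 1 of the 4 libraries was left out, at which point the smallest adjusted p among the 28 lay between 0.0543 and 0.0678 (limma). In those fits 20 to 23 of the 28 had a negative fold change, where the median log2 fold change over all genes tested was 0.003 to 0.015.

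**Figure D1:**
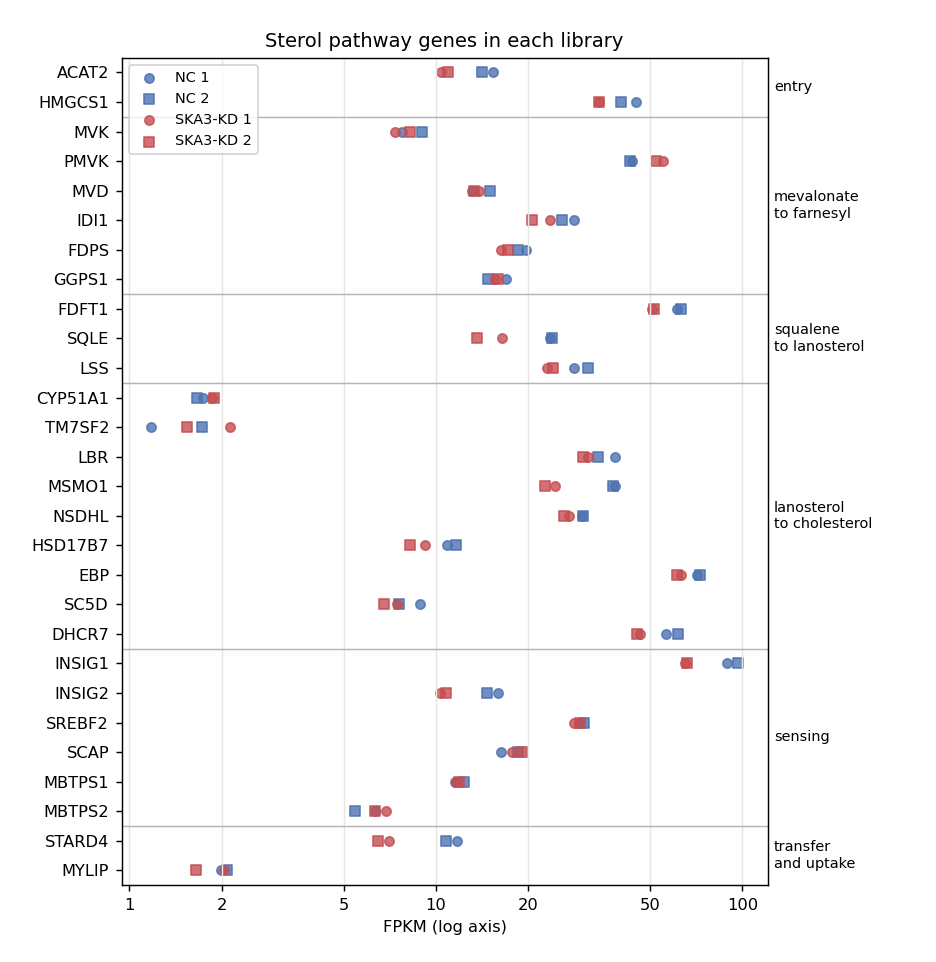
FPKM of each of the 28 genes on a log axis, with NC libraries in blue and SKA3-KD libraries in red, circles for replicate 1 and squares for replicate 2, grouped by step of the pathway. The levels run from about 1 FPKM for TM7SF2 to 96.9 FPKM for INSIG1, and for MSMO1, SQLE, STARD4, INSIG1 and INSIG2 the red points stand apart to the left of the blue.

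Expression levels spanned a wide range along the route. INSIG1 had the highest mean over the 4 libraries, 79.4 FPKM, followed by EBP at 67.0, FDFT1 at 56.7, DHCR7 at 52.5 and PMVK at 48.5 FPKM. TM7SF2, CYP51A1 and MYLIP had the lowest means, 1.64, 1.79 and 1.94 FPKM, and their library values overlapped, so these 3 could not be ordered. With 48 to 91 recovered reads per library, those 3 genes were also the least precisely measured. The level of CYP51A1 may also depend on how reads were assigned in exon bases shared with other genes, 83.2% of its total. The 20 enzymes together summed to 560 and 558 FPKM in the NC libraries and to 479 and 466 FPKM in the SKA3-KD libraries. Of the enzymes, 5 fell and 1 rose. Against the NC mean, the median difference of the 28 genes on the log2 scale in the SKA3-KD libraries was -0.19 for replicate 1 and -0.24 for replicate 2, with 22 of the 28 below in each library.

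The promoters of the genes that fell were read to see which letters of the known control elements they hold. RefSeq promoter windows (GRCh38.p14, 250 bases before to 50 bases after the start) matched 25 of the 28 genes, and the others were ACAT2, SQLE and FDFT1. The stretches shown lie before the RefSeq start of MSMO1, DHCR7, INSIG1 and STARD4, which fell and hold a CCAAT box, and of SREBF2, which did not pass the threshold and is the only one of the 25 with the sterol regulatory element core. They were picked after the values were seen. Capitals mark the CCAAT box (CCAAT, or ATTGG where it lies on the other strand) and, in SREBF2, the core searched as TCACNCCAC. Each runs 5′ to 3′ on the strand of its gene and holds no annotated exon base of it. The RefSeq start used for DHCR7 lies within the GENCODE span of the gene, downstream of its outermost annotated 5′ end, so that its stretch lies between annotated exons, while the other stretches lie outside the GENCODE span of their genes. MSMO1 lies at chr4:165327459-165327622 (+), DHCR7 at chr11:71448436-71448512 (-), INSIG1 at chr7:155297683-155297737 (+), STARD4 at chr5:111512636-111512721 (-) and SREBF2 at chr22:41832947-41833028 (+).
MSMO1: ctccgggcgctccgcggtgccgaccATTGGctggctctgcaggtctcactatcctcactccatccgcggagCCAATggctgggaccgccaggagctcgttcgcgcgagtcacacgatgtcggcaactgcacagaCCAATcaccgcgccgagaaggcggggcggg
DHCR7: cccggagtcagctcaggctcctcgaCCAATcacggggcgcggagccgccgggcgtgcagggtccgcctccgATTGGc
INSIG1: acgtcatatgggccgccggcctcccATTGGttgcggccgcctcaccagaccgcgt
STARD4: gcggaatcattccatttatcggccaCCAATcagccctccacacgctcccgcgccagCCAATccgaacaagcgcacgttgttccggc
SREBF2: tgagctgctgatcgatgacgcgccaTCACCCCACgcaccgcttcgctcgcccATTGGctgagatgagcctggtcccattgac

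Matches were counted on both strands over the whole window. The CCAAT box was present in 16 of the 25 promoters, or 64.0%, beside 37.3% of the promoters of genes tested and 35.7% of all RefSeq promoters. The GC box, searched as GGGCGG, was present in 20 of the 25, or 80.0%, beside 72.1% of tested and 44.6% of all promoters. The core TCACNCCAC was present in 1 of the 25, beside 1.08% of tested and 1.15% of all promoters, and in SREBF2 it begins 133 bases before the start. In no member promoter did matches of different motifs share a base. Of the 5 genes that fell and had a window, 4 held a CCAAT box, all 5 held a GC box and none held the core, and INSIG2 was the one without a CCAAT box. The 16 genes with a CCAAT box had a median log2 fold change of -0.20 (range -0.67 to 0.21), with 4 lower and 0 higher. The 9 without had a median of -0.00 (range -0.49 to 0.30), with 1 lower and 1 higher. ACAT2, SQLE and FDFT1, which also fell, had no window and are in neither group. These are letter matches and not binding sites, and a window without a match says only that those letters are not in it. The CCAAT box and the GC box were added to the search after the values had been seen, so the split cannot test whether the box goes with the fall.

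The entry into the pathway is made by thiolases and by the synthase HMGCS1. ACAT2, the cytosolic thiolase that joins acetyl-CoA units, fell by 27.5%, from 15.3 and 14.2 FPKM in NC to 10.4 and 10.97 FPKM in SKA3-KD (log2 fold change -0.43, SE 0.07, adjusted p = 0.0288, limma). Its groups did not overlap. In GENCODE 29, 52.3% of the exon bases of ACAT2 (chr6:159760328-159779055, +, GRCh38) lie opposite exons of SOD2-OT1, SOD2 and TCP1, and whether the counting used strand is not given in the sources used here. TCP1, a chaperonin subunit on that opposite strand, was at 55.001 and 50.2 FPKM in NC and 61.8 and 59.9 FPKM in SKA3-KD, and its part in the ACAT2 values was not tested. HMGCS1, which makes hydroxymethylglutaryl-CoA, was at 45.0 and 40.1 FPKM in NC and at 34.1 and 34.0 FPKM in SKA3-KD. Both SKA3-KD libraries were lower, and the difference stood just outside the threshold (log2 fold change -0.31, SE 0.07, adjusted p = 0.0565, limma), while voom on the reads called it at 0.00214.

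In the mevalonate segment, from MVK to the prenyl diphosphate synthases, 5 of the 6 genes had a negative fold change and 1, PMVK, a positive one. PMVK, the phosphomevalonate kinase (chr1:154924734-154936991, -, GRCh38), rose by 24.0%, from 43.6 and 42.9 FPKM in NC to 54.96 and 52.3 FPKM in SKA3-KD (log2 fold change 0.30, SE 0.06, adjusted p = 0.0362, limma). It was the only one of the 28 genes called higher, with both SKA3-KD libraries above both NC libraries and 495 to 790 reads per library. The other genes of the segment were not called. IDI1, the isomerase of isopentenyl diphosphate, was at 28.2 and 25.9 FPKM in NC and at 23.5 and 20.5 FPKM in SKA3-KD, lower in both libraries (log2 fold change -0.29, adjusted p = 0.106, limma; 0.0107 by voom on the reads). FDPS, which makes farnesyl diphosphate, was at 19.7 and 18.5 FPKM in NC and at 16.4 and 17.2 FPKM in SKA3-KD (log2 fold change -0.18, adjusted p = 0.153, limma). For the kinase MVK, the decarboxylase MVD and GGPS1, which makes the longer geranylgeranyl unit, the groups overlapped, with log2 fold changes of -0.09, -0.05 and -0.00. GGPS1 shares 37.3% of its exon bases with TBCE on the same strand. Summed over the 6 genes, the segment stood at 129 and 126 FPKM in NC and 132 and 128 FPKM in SKA3-KD.

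From squalene to lanosterol all 3 genes were lower in both SKA3-KD libraries, and 2 of the 3 passed the threshold. SQLE, the epoxidase that oxidises squalene (chr8:124998497-125022283, +, GRCh38), was at 23.6 and 24.0 FPKM in NC and at 16.4 and 13.7 FPKM in SKA3-KD. The NC values nearly coincided, and SKA3-KD 2 was the lower of its pair. SQLE fell by 36.8% (log2 fold change -0.63, SE 0.10, adjusted p = 0.0239, limma) on 694 to 1217 reads per library. FDFT1, the squalene synthase (chr8:11795573-11839309, +), was at 61.3 and 63.1 FPKM in NC and at 50.8 and 51.6 FPKM in SKA3-KD, a smaller difference with little spread in either group. FDFT1 fell by 17.6% (log2 fold change -0.27, SE 0.05, adjusted p = 0.0391, limma). LSS, the cyclase that closes lanosterol, was at 28.3 and 31.5 FPKM in NC and at 23.0 and 24.2 FPKM in SKA3-KD. Its log2 fold change of -0.33 was larger than that of FDFT1 but its NC libraries were further apart, and it stood just outside the threshold (SE 0.08, adjusted p = 0.0544, limma; 0.00143 by voom on the reads).

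**Figure D2:**
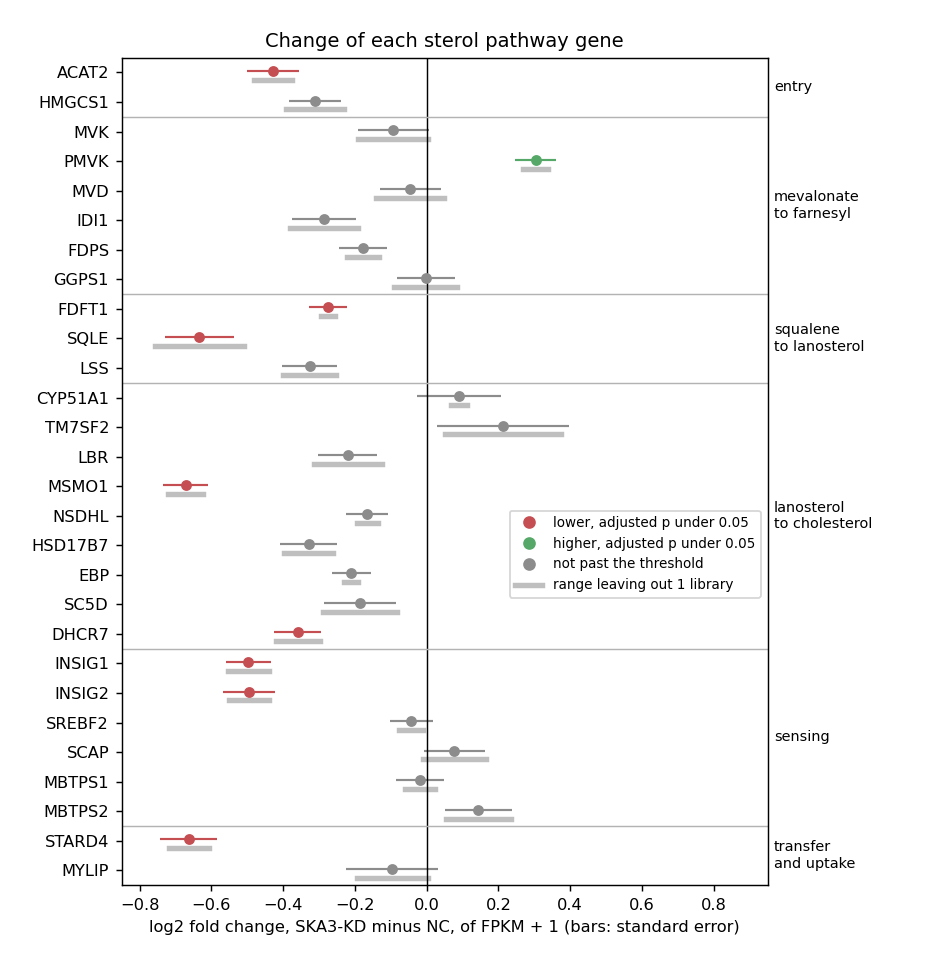
Log2 fold change of FPKM + 1 (SKA3-KD minus NC) for each of the 28 genes with its standard error, red where lower and green where higher at an adjusted p under 0.05 and grey otherwise, with a pale bar for the range when 1 library is left out. MSMO1 at -0.67, STARD4 at -0.66 and SQLE at -0.63 lie furthest to the left, and PMVK at 0.30 is the only green point.

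Among the 9 genes that turn lanosterol into cholesterol, 2 fell, and 7 were below NC in both SKA3-KD libraries. MSMO1, the oxidase that starts removal of the C4 methyl groups (chr4:165327623-165343160, +, GRCh38), was at 38.4 and 38.0 FPKM in NC and at 24.4 and 22.8 FPKM in SKA3-KD. Each pair of replicates lay close together and the groups were far apart. MSMO1 fell by 38.2% (log2 fold change -0.67, SE 0.06, adjusted p = 0.0112, limma), on 719 to 1328 reads per library, and it had the smallest adjusted p of the 28 genes. DHCR7, the reductase of the last step (chr11:71428193-71452868, -), fell by 22.5%, from 56.5 and 61.6 FPKM in NC to 46.3 and 45.4 FPKM in SKA3-KD (log2 fold change -0.36, SE 0.07, adjusted p = 0.0342, limma). The partners of MSMO1 in C4 demethylation, NSDHL and HSD17B7, were also lower in both libraries but were not called, with log2 fold changes of -0.17 and -0.33 and adjusted p of 0.131 and 0.0609 (limma; 0.162 and 0.00867 by voom on the reads). HSD17B7 was at 10.8 and 11.6 FPKM in NC and 9.20 and 8.27 FPKM in SKA3-KD, and its pseudogene HSD17B7P2 at 2.98 and 2.01 against 1.31 and 1.95 FPKM, so reads could be split between these near-identical copies.

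EBP, the sterol isomerase and the second most abundant of the 28 transcripts, was at 71.1 and 72.9 FPKM in NC and at 62.9 and 61.2 FPKM in SKA3-KD. On the log2 scale the difference was -0.21, just outside the threshold (adjusted p = 0.0683, limma; 0.0300 by voom on the reads). LBR, a protein of the inner nuclear membrane with sterol reductase activity, was at 38.5 and 33.7 FPKM in NC and 31.5 and 30.2 FPKM in SKA3-KD, and SC5D, the desaturase, at 8.90 and 7.59 against 7.48 and 6.75 FPKM. Neither was called by limma, with adjusted p of 0.148 and 0.272, while voom on the reads gave 0.0284 for LBR and 0.118 for SC5D. CYP51A1, the lanosterol demethylase, and TM7SF2, a second sterol reductase, were the enzymes with positive values here, with log2 fold changes of 0.09 and 0.21 and adjusted p of 0.646 and 0.482 (limma). Their levels were low, 1.66 to 1.89 FPKM for CYP51A1 and 1.18 to 2.13 FPKM for TM7SF2. In the annotation 83.2% of the exon bases of CYP51A1 are shared with other genes, and how reads in them were assigned is not given in the sources used here. The 9 genes summed to 257 and 259 FPKM in NC and to 213 and 204 FPKM in SKA3-KD.

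In the sensor both INSIG genes fell and the other 4 were not called. INSIG1, which holds SCAP in the endoplasmic reticulum and is itself a target of SREBP-2 (chr7:155297776-155310235, +, GRCh38), was at 89.3 and 96.9 FPKM in NC and at 65.2 and 66.1 FPKM in SKA3-KD. INSIG1 fell by 29.5% (log2 fold change -0.50, SE 0.06, adjusted p = 0.0174, limma) on 2421 to 3902 reads per library, the largest fall in absolute level among the 28. INSIG2, its paralogue (chr2:118088452-118110997, +), was at 15.9 and 14.7 FPKM in NC and at 10.3 and 10.8 FPKM in SKA3-KD. INSIG2 fell by 31.0% (log2 fold change -0.49, SE 0.07, adjusted p = 0.0224, limma), so its relative change was close to that of INSIG1 at a level several times lower. SREBF2, the gene of SREBP-2, was at 29.3 and 30.3 FPKM in NC and at 28.2 and 29.6 FPKM in SKA3-KD, and the groups overlapped (log2 fold change -0.04, SE 0.06, adjusted p = 0.674, limma). The escort SCAP was at 16.3 and 18.5 against 17.8 and 19.1 FPKM, again overlapping (log2 fold change 0.08, adjusted p = 0.583, limma). For the proteases that cut SREBP-2, MBTPS1 and MBTPS2, the log2 fold changes were -0.02 and 0.14, with adjusted p of 0.876 and 0.354 (limma). These measure transcripts, and cleavage of the factor was not measured.

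STARD4, a soluble carrier that moves cholesterol between membranes (chr5:111496033-111512590, -, GRCh38), was at 11.7 and 10.8 FPKM in NC and at 7.04 and 6.47 FPKM in SKA3-KD. STARD4 fell by 40.1%, the largest percentage among the 28 (log2 fold change -0.66, SE 0.08, adjusted p = 0.0153, limma), on 407 to 799 reads per library. MYLIP, a ubiquitin ligase that removes lipoprotein receptors from the cell surface and is induced by sterols through LXR, was at 1.98 and 2.08 FPKM in NC and at 2.04 and 1.65 FPKM in SKA3-KD. The MYLIP groups overlapped (log2 fold change -0.10, adjusted p = 0.654, limma), and with 57 to 72 reads per library a small difference would not have been detectable.

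**Figure D3:**
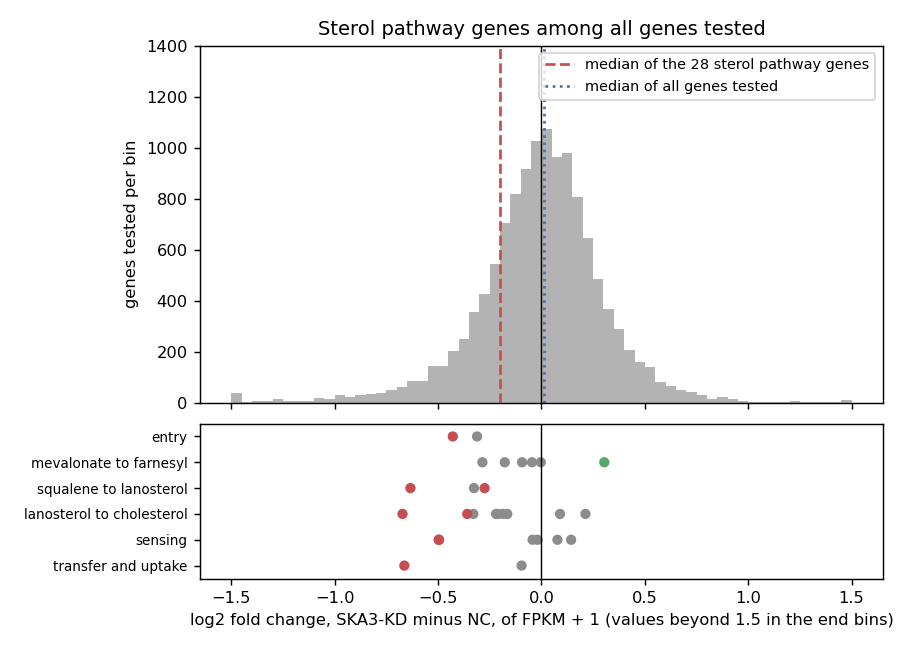
Upper panel, histogram of the log2 fold change of FPKM + 1 (SKA3-KD minus NC) over the 12645 genes tested in bins of 0.05, with the median of the 28 genes dashed and that of all genes dotted. Lower panel, the 28 genes by step, red where lower and green where higher at an adjusted p under 0.05; most lie left of 0, inside the body of the distribution, with a median of -0.20, and the points of INSIG1 and INSIG2 coincide.

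The calls differed in how far they held when the fit was changed with all 4 libraries kept. MSMO1 was called lower in each of 9 alternative fits. INSIG1, INSIG2 and STARD4 were called in 8 of the 9, and ACAT2, DHCR7, FDFT1 and SQLE in 7 of the 9, as was the rise of PMVK. HMGCS1 and LSS, just outside the threshold, were called lower in 4 of the 9. None of the 28 genes changed sign while past the threshold in any fit.

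Genes that feed, branch from or dispose of the pathway were read from 4 further lists, drawn up from general knowledge of the pathway with earlier results of these data known. Over all genes tested, 6.11% were called lower and 6.16% higher by limma, and 12.3% and 13.9% by voom on the reads. In precursor supply and electron transfer, 4 of 10 genes tested fell and 0 rose. ACLY, the lyase that makes cytosolic acetyl-CoA from citrate, was at 101 and 105 FPKM in NC and at 66.6 and 68.0 FPKM in SKA3-KD (log2 fold change -0.60, adjusted p = 0.0103, limma). CYB5B, an outer mitochondrial cytochrome b5, was at 80.0 and 75.2 against 48.9 and 48.4 FPKM (log2 fold change -0.66, adjusted p = 0.0103, limma). ERG28, which is thought to scaffold the C4 demethylation enzymes, was at 29.04 and 27.3 against 17.5 and 16.2 FPKM (log2 fold change -0.71, adjusted p = 0.0117, limma). The mitochondrial thiolase ACAT1 also fell, by 0.42 on the log2 scale (adjusted p = 0.0293, limma). The median of the list was -0.07, since 5 of its 10 genes were positive. In the isoprenoid branches, which lead to dolichol, ubiquinone and prenylated proteins, 0 of 12 genes tested passed the threshold in either direction, with 1 higher by voom on the reads and a median of 0.02.

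Among genes of sterol uptake, transfer, esterification and efflux, 4 of 15 tested fell and 2 rose, beside 6.11% and 6.16% of all genes tested. The median of the list was 0.01. By voom on the reads 5 fell and 5 rose, beside 12.3% and 13.9% of all genes tested. SOAT1, which esterifies cholesterol for storage, was at 69.6 and 64.1 FPKM in NC and at 43.5 and 44.8 FPKM in SKA3-KD (log2 fold change -0.59, adjusted p = 0.0142, limma). NCEH1, a hydrolase of cholesteryl esters, moved the other way, from 10.1 and 8.93 FPKM to 19.8 and 18.9 FPKM (log2 fold change 0.96, adjusted p = 0.00932, limma). Lysosomal LIPA and NPC2, which free cholesterol from esters and hand it on, fell by 0.42 and 0.34 on the log2 scale (adjusted p = 0.0237 and 0.035, limma). ABCG1, a sterol exporter induced by LXR, rose from 3.19 and 3.02 FPKM to 6.32 and 6.12 FPKM (log2 fold change 0.81, adjusted p = 0.0113, limma), whereas NR1H3, the gene of LXR alpha, fell from 12.4 and 13.5 FPKM to 8.75 and 8.10 FPKM (log2 fold change -0.56, adjusted p = 0.0205, limma). ABCA1, another exporter induced by LXR, was below the filter at 0.493 to 0.560 FPKM and was not tested.

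Of 12 other regulators of sterol sensing, 1 fell and 0 rose, beside 6.11% and 6.16% of all genes tested. The median of the list was -0.09. By voom on the reads 3 were lower and 1 was higher, beside 12.3% and 13.9% of all genes tested. NFYC, a subunit of NF-Y, fell from 8.12 and 8.81 FPKM to 6.48 and 5.99 FPKM (log2 fold change -0.39, adjusted p = 0.0417, limma). The other NF-Y subunits, NFYA and NFYB, were not called, and their log2 fold changes were positive, 0.13 and 0.14 (adjusted p = 0.384 and 0.420, limma). SREBF1, whose products act mainly on fatty acid synthesis, was at 39.9 and 46.6 FPKM in NC and at 46.8 and 50.6 FPKM in SKA3-KD, with both SKA3-KD libraries above NC by a small margin (log2 fold change 0.17, adjusted p = 0.278, limma).

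**Figure D4:**
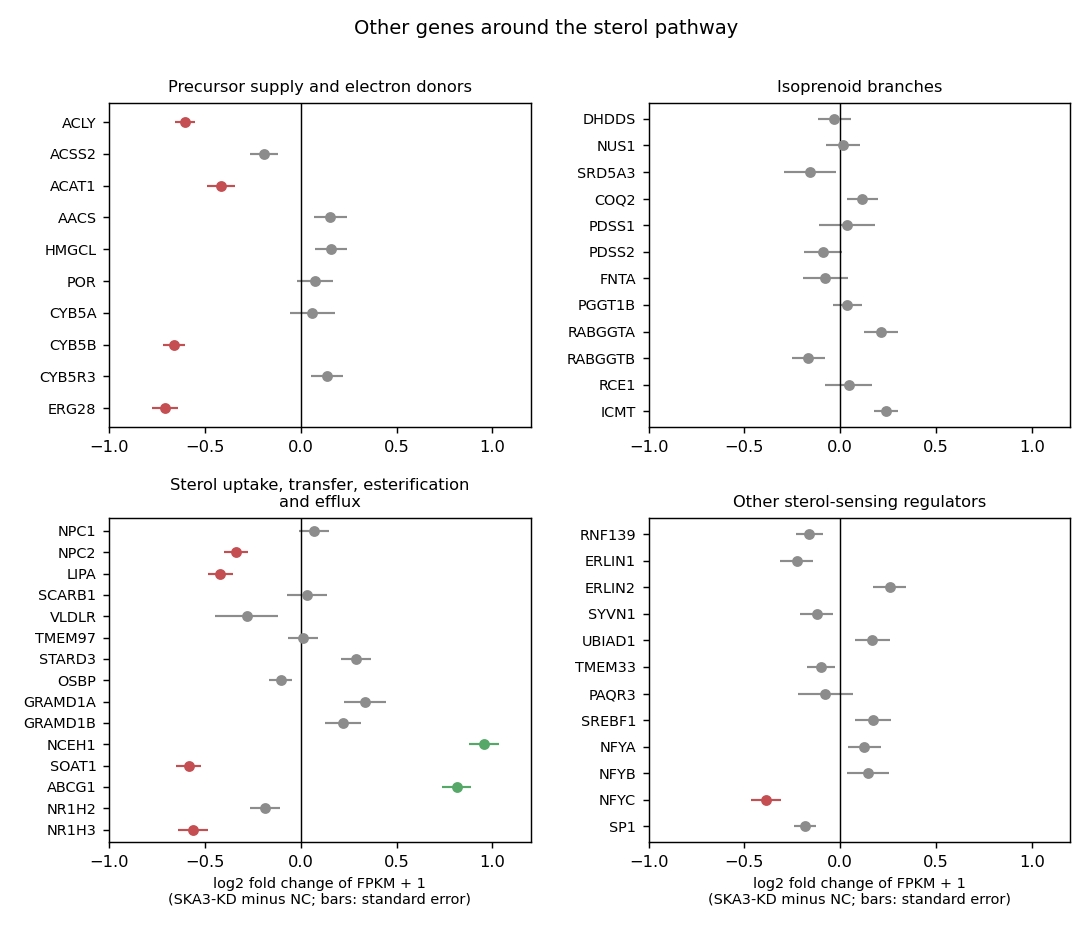
Log2 fold change of FPKM + 1 (SKA3-KD minus NC) with its standard error for the genes tested in 4 lists around the pathway, red where lower and green where higher at an adjusted p under 0.05 and grey otherwise. In the supply list ACLY, ACAT1, CYB5B and ERG28 are red, the isoprenoid branches hold no coloured point, and NCEH1 at 0.96 and ABCG1 at 0.81 lie furthest to the right.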

How the data were processed

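RNA from 4 TU-177 libraries, NC and SKA3-KD with 2 each, was sequenced, and groups were taken from the sample labels. The authors deposited FPKM values per gene for 28729 Ensembl identifiers. The submitters' processing notes name Bowtie2 2.2.8, HISAT2, StringTie 1.3.1, Cuffdiff 2.1.1 and hg19, without roles. The annotation and strand setting are not given in the sources used here. FPKM removes gene length and library size and not sequence composition. Symbols came from a name table (27043 identifiers), and gene positions and exon lengths from GENCODE 29 on GRCh38, which is not the submitters' build.

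Genes with a mean of at least 1 FPKM (12645) were tested as log2(FPKM + 1), with limma 3.58.1 in R 4.3.3 (lmFit, eBayes with a mean-variance trend) and Benjamini-Hochberg adjustment, threshold 0.05. Fold changes on this scale understate the change of low genes. Steps of the FPKM values gave whole reads for 100% of the genes tested within 0.01 read, 61.3% of them at the GENCODE exon length and the rest at a searched length of up to 100000 bases. Reads on genes summed to 102% to 104% of the library sizes, and the cause of the excess was not tested. Replicates differed beyond counting noise (chi-square per degree of freedom 3.38 and 3.37) and were kept as separate samples. An exact two-sided permutation test of 2 against 2 cannot go below 0.333, so none was used. The steps were tested on simulated data.

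The members and lists were chosen with earlier results of these data known. Named are all 28 members, SKA3, the list genes past the threshold, and SREBF1, ABCA1 and ABCG1. NFYA and NFYB were added to stand beside NFYC. The result of 1 listed regulator is not reported here. Promoters were to be shown for called genes with the sterol element core, and since none held it the choice was widened. Alternatives were median-of-ratios scaling, quantile normalization, a pseudocount of 0.1, no filter, a mean of at least 5 FPKM, eBayes without trend, robust eBayes, a replicate block, each library left out, voom on reads, and unadjusted p. Python 3.11.15 was used for other steps.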

Additional observations from a re-analysis of the deposited data

How the results depend on the processing

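Of 28 sterol genes, 8 were lower and 1 was higher. Without the filter on low values 1 was lower and 0 higher, of all genes tested 81 and 48, the FPKM filter having been replaced by any value above 0 over 26504 genes. Without the mean-variance trend 4 sterol genes were lower and 0 higher, of all genes 381 and 312. With voom on the reads 14 sterol genes were lower, of all genes 1561 lower and 1760 higher. At an unadjusted p under 0.05, 16 sterol genes were lower, of all genes 1912 lower and 2046 higher, beside 772 and 779 by limma. Why these counts moved was not tested. Leaving out 1 library gave 0 to 0 sterol genes in either direction, and 0 to 135 lower and 0 to 46 higher of all genes, the lone library being assumed to vary like the other group. None of all genes was called without NC 1 or NC 2. With the replicate number as a block, 11 sterol genes were lower and 1 higher, of all genes 965 and 1002. The 2 numbers do not pair the samples by any label, and their deviations correlated at 0.0973 over genes. Scaling, quantile normalization and a pseudocount of 0.1 each gave 8 lower, robust eBayes 10, and a mean of at least 5 FPKM 12 of 25. The median of the sterol genes stayed between -0.24 and -0.18 in every fit. Over single genes and fits, 297 outcomes were unchanged, 15 calls were gained, 49 were lost and 0 reversed. The unchanged outcomes were mostly of genes called in neither fit, and all losses were from genes called by the main fit. TM7SF2, CYP51A1 and MYLIP rested on few reads, 48 to 91 per library, and 83.2% of the exon bases of CYP51A1 are shared with other genes.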
